A study of Mus musculus with 16 samples.

Results

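The MS4A family is described here through 8 of its genes, Ms4a4a, Ms4a4c, Ms4a6b, Ms4a6c, Ms4a6d, Ms4a7, Ms4a8a and Ms4a14. They were chosen by name, as the rows of the gene table with these symbols, out of 22287 genes. All 8 passed edgeR's expression filter, as did 12514 genes in all. RNA-seq was done on mouse bone marrow derived macrophages (BMDMs) from C57BL/6J mice of 8 weeks, grown for 7 days in GM-CSF at 20 ng/ml (called GM) or in M-CSF at 50 ng/ml (called M). The dishes were either treated for tissue culture (TC) or untreated polystyrene (noTC), and the cells then received vehicle (steady state) or 100 ng/ml LPS, the endotoxin that activates TLR4, for 3 h. This gave 8 groups of 2 libraries, 16 in all, named for growth factor, dish and LPS (GM-TC, M-noTC-LPS and so on). All groups are unsorted cultures of unmodified cells. The study describes the replicates as biological. Whether they came from separate mice or separate cultures of the same marrow is not given in the sources used here, and p-values measure the spread between these libraries.

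MS4A genes encode tetraspan membrane proteins that lie in the plasma membrane and endosomes, where several of them sit beside immune receptors and modify their signals. Ms4a1 encodes the B cell antigen CD20 and Ms4a2 encodes the beta chain of the high-affinity IgE receptor of mast cells. Ms4a4a is a macrophage surface protein found with the beta-glucan receptor dectin-1 (Clec7a), Ms4a7 is used as a mark of monocyte-derived and border macrophages, and the Ms4a6 genes are expressed in monocytes and macrophages. Ms4a4c is counted among interferon-inducible genes, and Ms4a8a has been described in alternatively activated macrophages. Tmem176a and Tmem176b encode distant tetraspan relatives.

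The family lies in 1 cluster on chromosome 19 (GRCm38, GENCODE vM21), where 19 MS4A genes of the table span 679 kb with 3 other genes of the table between them. The 8 members extend over 537 kb. In chromosomal order Ms4a8a (11067471 to 11081102), Ms4a14 (11301249 to 11314454) and Ms4a7 (11321039 to 11336146) are read from the minus strand. Ms4a4a (11375523 to 11392790), Ms4a4c (11404770 to 11427246), Ms4a6c (11469366 to 11482192) and Ms4a6b (11516512 to 11531256) are read from the plus strand, and Ms4a6d (11586604 to 11604849) again from the minus strand. The 6 members from Ms4a14 to Ms4a6b form an interval in which Ms4a4b is the only other MS4A gene. Their longest annotated coding sequences run from 654 bases in Ms4a6c to 873 bases in Ms4a8a, apart from Ms4a14 with 3699 bases. Ms4a6b and Ms4a6c were 85.7% identical over 645 aligned coding bases, Ms4a6b and Ms4a6d 81.3% over 733, and Ms4a6c and Ms4a6d 77.5% over 650. Ms4a4a and Ms4a4c, the next most alike, were 68.2% identical. At the level of 100-base windows of transcript, Ms4a4c shared 1.66% of its windows with Ms4a4b, and the other 7 members shared none with any MS4A gene.

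RefSeq promoter sequences (GRCm38.p6) matched 7 of the 8 members, all but Ms4a6d, with 8 windows of which Ms4a7 has 2. For Ms4a4a the bases after the RefSeq start were not found in a GENCODE transcript of the gene, so its window is less sure. The windows of Ms4a4c and Ms4a6b lie inside their GENCODE genes, which begin at 11404770 and 11516512, and the bases before those earlier starts were not searched. The bases before the RefSeq transcription start of 4 genes are shown 5′ to 3′. Ms4a6c and Ms4a6b are shown because they were the most alike of the promoters, and capitals mark the runs of 12 or more bases that both hold. These runs covered 72 of the 250 bases before the start in each gene, with a longest run of 48 bases, while the longest run shared by any other pair of members was 9 bases. Both lines stop where a GENCODE exon of the gene begins, after 248 bases of Ms4a6c and 144 bases of Ms4a6b, so that the longest run is printed only in part. In Ms4a4c, the gene with the largest LPS response, capitals mark the letters GAGGAA, a core bound by the myeloid factor PU.1. In Ms4a8a, the one member held higher with GM-CSF in every pair of groups, capitals mark TGANTCA, the letters of an AP-1 site.
Ms4a6c, chr19:11469118-11469365, plus strand: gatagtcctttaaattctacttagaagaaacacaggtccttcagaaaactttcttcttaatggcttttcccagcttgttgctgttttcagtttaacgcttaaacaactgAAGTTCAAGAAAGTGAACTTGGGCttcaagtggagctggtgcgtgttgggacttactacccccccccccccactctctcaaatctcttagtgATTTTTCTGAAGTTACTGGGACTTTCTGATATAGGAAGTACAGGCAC
Ms4a6b, chr19:11518309-11518452, plus strand: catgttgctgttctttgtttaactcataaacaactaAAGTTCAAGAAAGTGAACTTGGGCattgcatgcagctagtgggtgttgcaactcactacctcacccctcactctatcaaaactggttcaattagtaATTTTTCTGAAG
Ms4a4c, chr19:11407411-11407660, plus strand: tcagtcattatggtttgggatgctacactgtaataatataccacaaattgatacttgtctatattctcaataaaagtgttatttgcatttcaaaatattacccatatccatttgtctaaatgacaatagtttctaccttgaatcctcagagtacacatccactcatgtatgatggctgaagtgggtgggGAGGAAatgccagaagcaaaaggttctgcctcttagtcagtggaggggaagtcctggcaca
Ms4a8a, chr19:11081104-11081353, minus strand: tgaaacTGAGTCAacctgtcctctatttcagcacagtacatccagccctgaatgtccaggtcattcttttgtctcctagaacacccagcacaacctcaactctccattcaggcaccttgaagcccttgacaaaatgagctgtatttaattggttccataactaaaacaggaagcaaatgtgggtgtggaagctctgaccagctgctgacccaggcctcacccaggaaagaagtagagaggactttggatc
The 8 windows of 250 bases were searched on both strands. GAAANNGAAA, the letters of an interferon-stimulated response element (ISRE), was in none of the 8 and in 2.98% of 32851 promoters. TTCNNNGAA, the letters of a STAT site, was in none and in 7.02% of promoters. GAGGAA was in 2 windows, of Ms4a4c and Ms4a14, and in 23.3% of promoters. After the sequences had been read, TGANTCA was searched and found in 3 windows, of Ms4a14, Ms4a7 and Ms4a8a, and in 6.75% of promoters. The shorter GAAANNGAA, which lies within the ISRE letters, was searched at the same time and found in 4 windows, of Ms4a6b, Ms4a6c and both of Ms4a7, and in 7.13% of promoters. In Ms4a6c and Ms4a6b it stands in the shorter of the shared runs. Matches are letters only, and no binding was measured.

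Total counts per library lay between 17527802 and 31458363, at which 3 counts amount to 0.0954 to 0.171 CPM (counts scaled to a common library total) before TMM scaling, a floor that covers counting error only. All 8 listed macrophage markers were tested, and their summed level lay between 37900 and 47800 CPM in GM and between 20500 and 30300 CPM in M libraries. A sum follows its most abundant genes. Gene by gene, 5 of the 8 were higher and 3 lower in M-TC than in GM-TC (median log2 fold change 0.85). Summed dendritic cell markers (9 genes) lay between 953 and 1120 CPM in GM and between 30.0 and 67.4 CPM in M, and neutrophil markers (8 genes) between 674 and 975 CPM and between 11.2 and 17.5 CPM, with 2 or 3 of them at 0 in each M group. Mast cell and basophil markers (9 genes) lay between 20.7 and 95.8 CPM in GM and 5.86 and 49.7 CPM in M, and monocyte markers (8 genes) between 114 and 193 CPM and 150 and 265 CPM. Of these 8 monocyte markers, 2 were higher and 4 lower in M-TC than in GM-TC (median log2 fold change -1.64). B cell markers (7 genes) reached at most 62.5 CPM in GM and 79.2 CPM in M, T and NK cell markers (8 genes) 2.33 and 5.54 CPM, and progenitor markers (5 genes) 1.39 and 0.200 CPM. Of the 7 B cell markers, 3 were tested and 4 had no count in M-TC. Of the 8 T and NK cell markers, 6 had no count in M-noTC-LPS, where Ms4a4b, listed among them, had 4.57 and 5.24 CPM. Heart muscle markers (10 genes) lay between 23.9 and 65.6 CPM in steady-state GM-TC and M-TC cells, and nowhere else above 1.97 CPM. CPM in the text below are scaled with edgeR's TMM factors, and each adjusted p is from edgeR's quasi-likelihood test with Benjamini-Hochberg adjustment, called under 0.05, except where DESeq2 is named.

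The sum of the members differed between growth factors and with LPS, and so did its make-up. Per kilobase of exon, the 8 members had a sum of 67.8 ± 6.97 CPM (SD, n = 2) for GM-TC and 61.6 ± 1.17 for GM-noTC, against 189 ± 1.62 for M-TC and 123 ± 6.57 for M-noTC. With LPS the sums were 239 ± 16.7, 224 ± 4.69, 770 ± 39.8 and 540 ± 40.2 CPM per kilobase (SD, n = 2 each). Ms4a6d alone made up 86.4% (TC) and 84.2% (noTC) of the sum in GM, but 26.7% and 28.5% in M. In M cells Ms4a6c was the most abundant member per length, with 39.8% of the sum in M-TC and 41.0% in M-noTC, against 5.04% and 5.43% in the GM groups. Upon LPS challenge Ms4a4c went from 0.210% to 8.40% of the sum in GM-TC cells and from 3.17% to 15.7% in M-TC cells. The 2 libraries of a group lay within 4 percentage points of each other for each member.

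**Figure D1:**
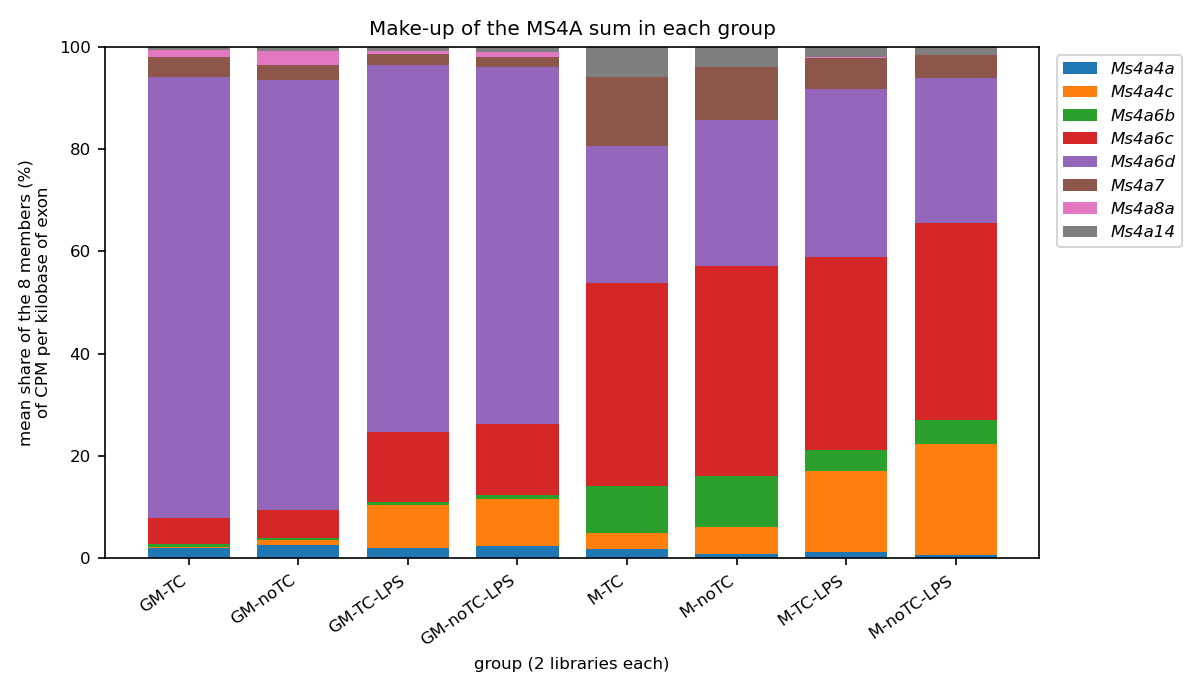
Stacked bars of the mean share (%) of each of the 8 members in their summed CPM per kilobase of exon, for the 8 groups of 2 libraries. Ms4a6d fills 86.4% of the GM-TC bar and 26.7% of the M-TC bar, where Ms4a6c takes 39.8%.

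**Figure D2:**
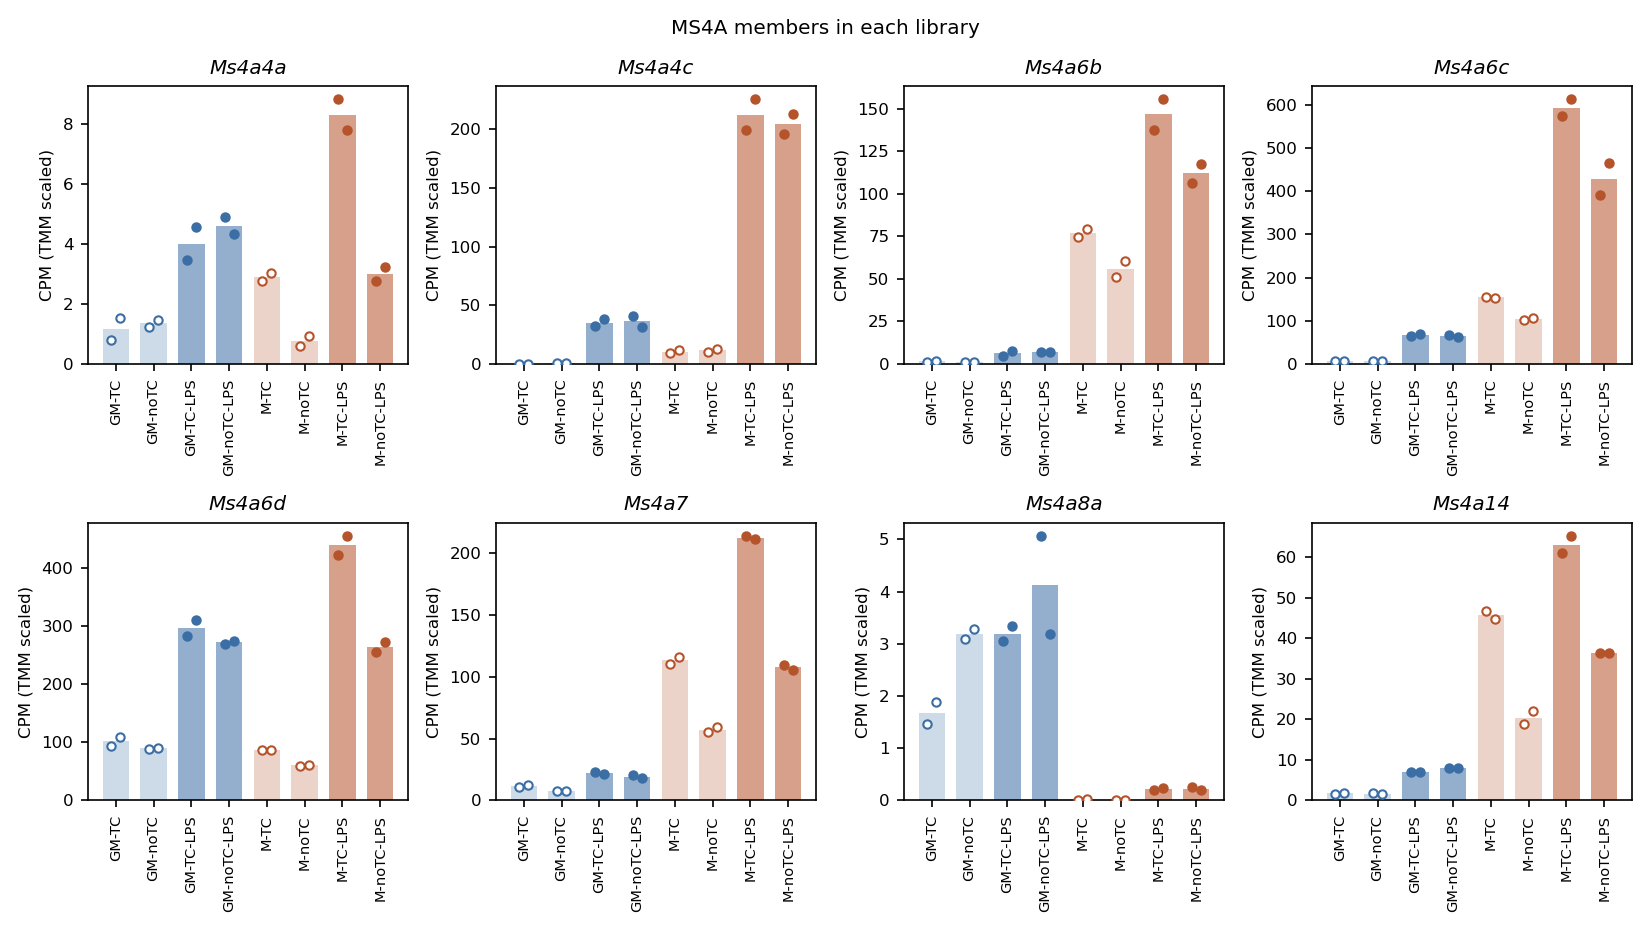
TMM-scaled CPM of the 8 members in each of the 16 libraries, on linear axes from 0, with a panel per gene. Points are libraries (open at steady state, filled with LPS, blue for GM and brown for M) and bars are means of 2. Ms4a6b, Ms4a6c, Ms4a7 and Ms4a14 are higher in every M group than in any GM group, Ms4a6d has its highest bars in the LPS groups of both cultures, and Ms4a8a is near 0 in M.

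On TC dishes at steady state the growth factor separated the members into those higher in M, Ms4a6d near equal and Ms4a8a higher in GM. By the calls there, 6 of the 8 members were higher in M and 2 lower. Of all genes tested 28.9% were higher and 32.6% lower. In bulk RNA, fewer cells of a type and less RNA per cell cannot be told apart, and the dendritic cell and neutrophil marker sums given above moved with the growth factor too (their part was not tested).

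Ms4a6b had 74.9 and 79.4 CPM in the M-TC libraries and 1.41 and 1.53 CPM in GM-TC, giving a log2 fold change of 5.70 (standard error 0.156, edgeR adjusted p = 1.56e-18). Ms4a6c had 155 and 153 CPM in M-TC and 7.62 and 6.2 CPM in GM-TC, giving a log2 fold change of 4.49 (adjusted p = 4.10e-20). The paired neighbours Ms4a14 and Ms4a7 behaved likewise. Ms4a14 had 46.8 and 44.7 CPM in M-TC and 1.67 and 1.89 CPM in GM-TC, giving a log2 fold change of 4.67 (adjusted p = 3.89e-19). Ms4a7 had 110 and 116 CPM against 11.1 and 12.2 CPM, giving a log2 fold change of 3.28 (adjusted p = 1.50e-19). For these 4 genes, each M library at steady state was above each GM library with or without LPS, which held for 18.9% of all genes. On noTC dishes their differences were 5.51 for Ms4a6b, 3.92 for Ms4a6c, 3.60 for Ms4a14 and 2.89 for Ms4a7 on the log2 scale.

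Ms4a4c, counted among interferon-inducible genes, was near the floor in GM-TC, with 0.252 and 0.242 CPM, and had 9.49 and 11.5 CPM in M-TC. It differed by a log2 fold change of 5.39 (standard error 0.338, edgeR adjusted p = 4.50e-12) on TC and 3.55 on noTC dishes, where GM-noTC had 0.897 and 1.07 CPM and M-noTC 10.01 and 12.96 CPM. Of 20 interferon-stimulated genes, 19 were higher in M-TC than in GM-TC at steady state, with a median log2 fold change of 2.93.

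Ms4a6d, the close relative of Ms4a6b and Ms4a6c in sequence, did not share their difference. It had 87.5 and 87.5 CPM in M-TC and 93.6 and 110 CPM in GM-TC, giving a log2 fold change of -0.22 (standard error 0.0679, edgeR adjusted p = 8.43e-03). This small difference was lost without GM-TC replicate 2 (log2 fold change -0.10, adjusted p = 0.226), without either M-TC library (adjusted p = 0.0597 and 0.0585), and turned to 0.10 (adjusted p = 0.179) when libraries were scaled by size only. On noTC dishes, with 60.2 and 61.6 CPM in M-noTC and 89.2 and 90.8 CPM in GM-noTC, it was lower in M by a log2 fold change of -0.56 (adjusted p = 2.28e-07).

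Ms4a8a was the member with the opposite pattern. It had 1.46 and 1.89 CPM in GM-TC, where 76 counts were seen in all, and 1 count in the 2 M-TC libraries, a ratio of 88.2 (95% exact interval 15.4 to 3530, counting error only). GM-noTC had 3.10 and 3.29 CPM from 165 counts, and M-noTC had none, which is at least 38.8-fold lower against a floor of 3 counts per library. Ms4a8a passed the expression filter only through the GM groups, where it is high. Its calls (edgeR adjusted p = 8.38e-08 and 1.31e-10) are therefore no support beyond these counts.

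Ms4a4a was the member whose direction depended on the dish. On TC it was higher in M, with 2.75 and 3.03 CPM against 0.808 and 1.53 CPM in GM (log2 fold change 1.26, edgeR adjusted p = 3.66e-04). On noTC it was lower in M, with 0.606 and 0.929 CPM against 1.22 and 1.48 CPM (log2 fold change -0.77, adjusted p = 0.0323). The lower level on noTC was lost without GM-noTC replicate 2 (adjusted p = 0.202), without M-noTC replicate 1 (adjusted p = 0.198), or with library size only (log2 fold change -0.49, adjusted p = 0.156). On noTC 5 members were thus higher and 3 lower in M, and of all genes 30.7% were higher and 31.4% lower.

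With LPS the order of the growth factors held for most members, mostly at smaller differences. For Ms4a7 on TC the log2 fold change was 3.28 in both states. M-TC-LPS cells were higher than GM-TC-LPS cells in 7 members and lower in 1, Ms4a8a, beside 32.9% and 33.9% of all genes. On noTC with LPS, 5 members were higher in M and 2 lower, Ms4a4a and Ms4a8a, beside 32.6% and 33.5% of all genes. Ms4a6d moved from a lower level at steady state to a higher one in M-TC-LPS (log2 fold change 0.56, edgeR adjusted p = 7.40e-08), and on noTC with LPS its difference was -0.04 (standard error 0.0639, adjusted p = 0.597). Ms4a4a in noTC with LPS was lower in M by a log2 fold change of -0.61 (adjusted p = 0.0222). That call was lost without GM-noTC-LPS replicate 1 (adjusted p = 0.114) and without M-noTC-LPS replicate 1 (adjusted p = 0.132). Ms4a8a had 131 counts in GM-TC-LPS and 8 in M-TC-LPS, a ratio of 15 (95% exact interval 7.41 to 35.5), and 177 against 9 counts on noTC, a ratio of 18.1 (9.30 to 40.2).

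LPS raised the family in each type of culture. In GM cells 8 members were upregulated on TC and 7 on noTC dishes, in M cells 8 on either dish, and none was downregulated in any of the 4. The 8 in M include Ms4a8a, which passed the expression filter only through the GM groups. Its calls in M rest on 8 against 1 counts on TC and 9 against 0 on noTC, and add no support. Among all genes tested 32.8%, 33.6%, 37.6% and 36.4% were upregulated and 34.2%, 34%, 36.4% and 35.9% downregulated. The members' median log2 fold changes were 1.86, 2, 1.73 and 1.98 in that order, the last being 1.69 with Ms4a8a at its bound, beside medians of all genes between -0.05 and -0.01. Scaling by library size alone moved the median of all genes to -0.53, -0.54, -0.83 and -0.73, since TMM factors lay in the range 1.11 to 1.39 for libraries at steady state and 0.778 to 0.842 for those with LPS. On that scale 7, 7, 4 and 7 members were still called higher, and in M-TC Ms4a14 was called lower. Markers of other cells moved with LPS too, and their part was not tested. Mast cell and basophil markers summed to 30.7 to 34.6 CPM in GM-TC and 94.5 to 95.8 CPM in GM-TC-LPS, and to 5.86 to 6.1 CPM and 47.9 to 49 CPM in M. Hdc, the histidine decarboxylase gene, made up most of the sums with LPS and little of those at steady state (means of 2.08 and 70.8 CPM in GM, 0.35 and 44.6 CPM in M). All 10 heart muscle markers were lower with LPS on TC dishes in both cultures and none was called on noTC dishes, where the members rose as well.

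Ms4a4c had the largest response in each of the 4 comparisons among the members with counts in every library. In GM-TC-LPS it had 32.3 and 38.0 CPM, from 0.252 and 0.242 CPM at steady state, giving a log2 fold change of 7.13 (standard error 0.270, edgeR adjusted p = 3.34e-16). In M-TC-LPS it had 199 and 226 CPM, from 9.49 and 11.5 CPM, giving a log2 fold change of 4.33 (standard error 0.121, adjusted p = 8.49e-19). The level reached in M-TC-LPS was 6.03-fold that in GM-TC-LPS, while the rise itself was larger in GM (140-fold against 20.1-fold). On noTC the log2 fold changes were 5.19 in GM, to 40.7 and 31.7 CPM, and 4.14 in M, to 196 and 213 CPM. All 20 listed interferon-stimulated genes rose with LPS as well, at median log2 fold changes of 5.77 (GM-TC) and 4.22 (M-TC). Cxcl10 and Rsad2 were among them, at 12.8 and 9.47 for GM-TC against 8.72 and 7.04 for M-TC.

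Ms4a6c rose to 64.5 and 69.5 CPM in GM-TC-LPS and to 574 and 613 CPM in M-TC-LPS, log2 fold changes of 3.29 and 1.94 (edgeR adjusted p = 1.32e-17 and 1.29e-16). In M-TC-LPS it was the member with the highest level. Ms4a6d rose to 283 and 311 CPM in GM-TC-LPS and to 422 and 456 CPM in M-TC-LPS. Its log2 fold changes were 1.55 and 2.33 (adjusted p = 3.69e-15 and 1.59e-18), so that it rose more in M than in GM, the reverse of Ms4a6c. Ms4a6b rose to 4.91 and 7.52 CPM in GM-TC-LPS and to 138 and 156 CPM in M-TC-LPS, log2 fold changes of 2.08 and 0.93, the second of which was not called with library size only (0.10, adjusted p = 0.278).

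Ms4a14 and Ms4a7 rose by smaller factors than Ms4a6c in both cultures. Ms4a14 rose to 7.08 and 7.01 CPM in GM-TC-LPS (log2 fold change 1.97, edgeR adjusted p = 2.76e-10). In M-TC-LPS it reached 60.9 and 65.3 CPM, giving a log2 fold change of 0.46 (adjusted p = 5.40e-06) that turned to -0.36 (adjusted p = 6.6e-05) with library size only, against a median of all genes of -0.83 on that scale. In M-noTC-LPS it had 36.5 and 36.4 CPM, giving a log2 fold change of 0.83 with TMM and 0.10 (adjusted p = 0.212) with library size only. Ms4a7 rose to 22.7 and 21.1 CPM in GM-TC-LPS and to 214 and 211 CPM in M-TC-LPS, both by a log2 fold change of 0.91, of which that in M-TC was 0.08 (adjusted p = 0.239) with library size only.

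Ms4a4a rose by similar factors in all 4 cultures, with log2 fold changes of 1.74 and 1.76 in GM (TC and noTC) and 1.52 and 1.92 in M (standard errors 0.207 to 0.275). Its highest level was 8.81 and 7.79 CPM, in M-TC-LPS. Ms4a8a had 3.05 and 3.34 CPM in GM-TC-LPS, giving a log2 fold change of 0.92 (edgeR adjusted p = 7.80e-03) that was lost without GM-TC replicate 1 (adjusted p = 0.0543), without GM-TC-LPS replicate 2 (adjusted p = 0.0504) and with library size only (adjusted p = 0.165). In GM-noTC-LPS it had 5.07 and 3.19 CPM, which overlaps the steady state, and a log2 fold change of 0.37 that was not called (adjusted p = 0.203) and was -0.14 with library size only, and 0.66 (adjusted p = 0.0496) without GM-noTC-LPS replicate 2. In M-TC-LPS 8 counts were seen against 1 at steady state, a ratio of 11 (95% exact interval 1.48 to 490, adjusted p = 0.0148). That call was lost without M-TC replicate 1 (adjusted p = 0.0909), without M-TC-LPS replicate 2 (adjusted p = 0.0522) and with library size only (adjusted p = 0.0595). In M-noTC-LPS 9 counts stood against 0, at least 2.76-fold higher (adjusted p = 8.22e-04).

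**Figure D3:**
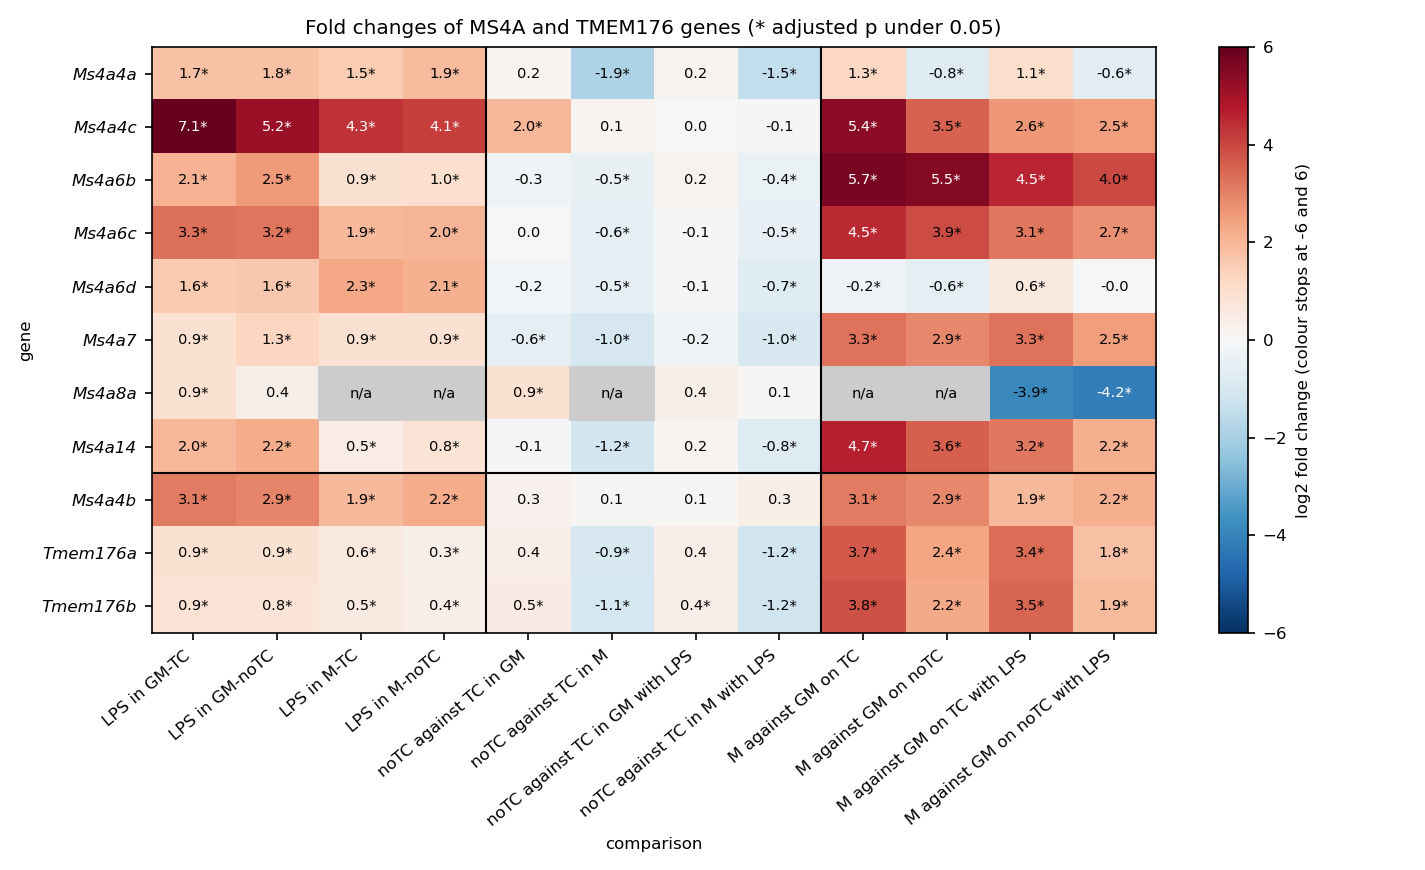
Log2 fold changes of the 8 members and of Ms4a4b, Tmem176a and Tmem176b (rows) in 12 comparisons (columns), with an asterisk where the adjusted p from edgeR was under 0.05. Red is higher in the first-named group and blue lower, with the colour scale ending at -6 and 6, and grey cells are those where a group had 0 or 1 counts of Ms4a8a. The 4 LPS columns are red for every member that is shown, and the columns for noTC against TC in M hold the blue of 6 members.

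The LPS response differed between the growth factors for most members, as tested by the interaction of growth factor and LPS. On TC dishes 5 members were called beside 41.1% of all genes, and on noTC dishes 7 beside 36.2%. Ms4a4c, Ms4a6b, Ms4a6c and Ms4a14 rose less in M than in GM on both dishes, by log2 differences of -2.80, -1.16, -1.35 and -1.51 on TC and -1.05, -1.54, -1.17 and -1.40 on noTC. The fitted change of Ms4a4c on noTC was no longer called without GM-noTC replicate 1 (adjusted p = 0.0675). Ms4a6d rose more in M on both dishes, by 0.78 on TC (edgeR adjusted p = 4.87e-07) and 0.52 on noTC (adjusted p = 1.11e-04). Ms4a7 differed on noTC (-0.40, adjusted p = 8.73e-03), a call lost without GM-noTC replicate 1 (adjusted p = 0.0555) and without GM-noTC-LPS replicate 1 (adjusted p = 0.0757), and had an interaction of -0.0019 (standard error 0.0959) on TC, which became -0.35 (adjusted p = 0.0128) with library size only. The interaction of Ms4a8a on noTC was called too but rests on M-noTC libraries with no count. That of Ms4a4a was -0.22 (standard error 0.344) on TC and 0.16 (standard error 0.375) on noTC, and was not called.

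The dish affected the members in M cells. At steady state 6 of 8 members were downregulated in M-noTC against M-TC and none upregulated, where 11.1% of all genes were downregulated and 16.1% upregulated. The median log2 fold change of the members was -0.78, beside 0.01 for all genes. Several marker sums moved with the dish in M cells, and their part was not tested. Macrophage markers lay between 25100 and 25600 CPM in M-TC and between 20500 and 21700 CPM in M-noTC. Taken singly, 4 of these 8 genes were lower and 2 higher at steady state, and their median change was near 0 (log2 -0.04). With LPS the sums lay between 29500 and 30300 CPM on TC and between 23200 and 24700 CPM on noTC dishes. There 6 of the 8 were lower and 1 higher (median log2 -0.23). Dendritic cell markers lay between 30.0 and 32.3 CPM in M-TC and between 54.8 and 56.6 CPM in M-noTC, and with LPS at 32.5 to 34.1 CPM and 63.4 to 67.4 CPM. Monocyte markers lay at 184 to 205 CPM in M-TC and 262 to 265 CPM in M-noTC, but with LPS at 150 to 154 CPM and 153 to 164 CPM. All 10 heart muscle markers were lower in M-noTC at steady state. They summed to 1.97 CPM or less in all libraries with LPS, where the same 6 members were lower.

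Ms4a4a fell the most, from 2.75 and 3.03 CPM in M-TC to 0.606 and 0.929 CPM in M-noTC, giving a log2 fold change of -1.86 (standard error 0.266, edgeR adjusted p = 1.35e-05). Ms4a14 fell from 46.8 and 44.7 CPM to 18.8 and 22.0 CPM, giving a log2 fold change of -1.16 (adjusted p = 2.17e-10). Ms4a7 fell from 110 and 116 CPM to 55.1 and 59.1 CPM, giving a log2 fold change of -0.99 (adjusted p = 1.89e-10). The 3 Ms4a6 genes fell by less. Ms4a6c went from 155 and 153 CPM to 101 and 106 CPM (log2 fold change -0.57, adjusted p = 2.47e-06), Ms4a6d from 87.5 and 87.5 CPM to 60.2 and 61.6 CPM (-0.52, adjusted p = 4.39e-06) and Ms4a6b from 74.9 and 79.4 CPM to 51.1 and 60.5 CPM (-0.46, adjusted p = 3.59e-04). For each of the 6 genes the 2 noTC libraries lay below the 2 TC libraries, as they did for 31.1% of all genes. Ms4a4c was at 9.49 and 11.5 CPM in M-TC and 10.01 and 12.96 CPM in M-noTC, giving a log2 fold change of 0.14 (standard error 0.141, adjusted p = 0.504), and its libraries overlapped. Ms4a8a was at or under the floor in both.

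Upon LPS challenge, the same 6 members were lower in M-noTC-LPS than in M-TC-LPS cells, beside 12.9% of all genes lower and 10.4% higher, and their libraries did not overlap, a separation that 30.6% of all genes showed. Ms4a4a had 2.77 and 3.24 CPM against 8.81 and 7.79 CPM (log2 fold change -1.46, edgeR adjusted p = 3.03e-05). Ms4a7 had 110 and 105 CPM against 214 and 211 CPM (-0.98, adjusted p = 3.00e-10), and Ms4a14 was lower by -0.79 (adjusted p = 9.77e-08). Ms4a6d had 256 and 273 CPM against 422 and 456 CPM (-0.73, adjusted p = 3.33e-08), and Ms4a6c 392 and 464 CPM against 574 and 613 CPM (-0.47, adjusted p = 2.84e-05). Ms4a6b had 107 and 118 CPM against 138 and 156 CPM (-0.39, adjusted p = 2.30e-03), a call lost without M-TC-LPS replicate 2 (adjusted p = 0.0548) and without M-noTC-LPS replicate 1 (adjusted p = 0.0569). Ms4a4c was at 199 and 226 CPM on TC and 196 and 213 CPM on noTC (log2 fold change -0.05, standard error 0.0944). The steady state and LPS comparisons are of different libraries.

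The LPS response was compared between the dishes by the interaction of dish and LPS. In M cells 1 of the 8 members, Ms4a14, had a called interaction (0.36, edgeR adjusted p = 0.0296), a share near the 10.6% of all genes. It was lost in 6 of the 8 fits that left out a library (log2 differences of 0.27 to 0.50) and with DESeq2 (adjusted p = 0.086). In GM cells no member was called at this threshold, beside 0.783% of all genes, a share too low for 8 members to be told apart from it. The difference for Ms4a4c was -1.94 (standard error 0.603, adjusted p = 0.208), called with DESeq2 (-1.97, adjusted p = 0.0154) and without an expression filter (adjusted p = 0.000801).

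In GM cells few members differed between the dishes. At steady state 2 members were called higher and 1 lower in GM-noTC, beside 4.69% and 2.85% of all genes. Ms4a7 was lower, with 7.42 and 8.02 CPM in GM-noTC and 11.1 and 12.2 CPM in GM-TC, giving a log2 fold change of -0.59 (standard error 0.102, edgeR adjusted p = 5.72e-04). Ms4a4c was higher, with 0.897 and 1.07 CPM against 0.252 and 0.242 CPM, giving a log2 fold change of 1.98 (standard error 0.589, adjusted p = 0.0427). Ms4a8a was higher, with 3.10 and 3.29 CPM against 1.46 and 1.89 CPM, giving a log2 fold change of 0.91 (standard error 0.279, adjusted p = 0.0499). Both upregulated calls were lost without any 1 of the 4 libraries (adjusted p of 0.0766 to 0.201 for Ms4a4c and 0.0822 to 0.235 for Ms4a8a), in a fit to the 4 libraries alone (0.0576 and 0.101), and, for Ms4a8a, with DESeq2 (0.115). In GM-noTC at steady state, 15 genes that were under 1 CPM in GM-TC and abundant in other libraries had a median excess, before TMM scaling, of 0.675% of their mean in those libraries. For Ms4a4c the excess was 1.02% of its mean elsewhere, and with 0.675% subtracted its log2 fold change was 1.03 (adjusted p = 0.455). The subtraction only took counts away from noTC libraries, and the 15 genes were picked as low in GM-TC. A fall for Ms4a4c was therefore built into this step, which gives only its size. For Ms4a8a the excess was 139% of its mean elsewhere, and the value after subtraction was 0.92 (adjusted p = 0.0518). Of the 20 interferon-stimulated genes 10 were higher in GM-noTC and none lower, with a median log2 fold change of 0.43. They summed to 401 to 402 CPM in GM-TC and 548 to 558 CPM in GM-noTC, against 28700 to 29800 CPM in GM-TC-LPS and 51100 to 55000 CPM in M-TC-LPS. Whether a small share of the other libraries makes up their difference was not tested. The other 5 members had log2 fold changes between -0.27 and 0.17 and were not called, though Ms4a6d was (-0.28, adjusted p = 0.00314) without GM-TC replicate 1.

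With LPS no member differed between GM-noTC and GM-TC at this threshold (log2 fold changes of -0.19 to 0.37), beside 2.08% of all genes higher and 0.727% lower. Ms4a6d had 269 and 275 CPM in GM-noTC-LPS and 283 and 311 CPM in GM-TC-LPS, and Ms4a7 20.5 and 17.8 CPM against 22.7 and 21.1 CPM, the lowest unadjusted p-values among the members. Ms4a4c had 40.7 and 31.7 CPM against 32.3 and 38.0 CPM.

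The dish effect differed between the growth factors. The interaction of dish and growth factor was called for 5 members at steady state, beside 11.2% of all genes, and for 5 with LPS, beside 10.6%, each time because the member was lower on noTC in M relative to GM. At steady state these were Ms4a4a (-2.04, standard error 0.410, edgeR adjusted p = 1.99e-03), Ms4a14 (-1.07, adjusted p = 2.37e-03), Ms4a6c (-0.58, adjusted p = 0.0176), Ms4a7 (-0.39, adjusted p = 0.0374) and Ms4a6d (-0.35, adjusted p = 0.0213). With LPS they were Ms4a4a (-1.66, adjusted p = 8.72e-04), Ms4a14 (-0.96, adjusted p = 7.27e-05), Ms4a7 (-0.79, adjusted p = 2.19e-05), Ms4a6d (-0.60, adjusted p = 9.45e-05) and Ms4a6c (-0.40, adjusted p = 0.0144). Ms4a4a and Ms4a14 were called in every fit that left out a library. At steady state the calls of Ms4a6c, Ms4a6d and Ms4a7 were lost in 4, 6 and 5 of 8 such fits, with adjusted p up to 0.171, 0.0846 and 0.204. After subtraction of a share of the other libraries from the noTC libraries at steady state, Ms4a6c was at -0.29 (adjusted p = 0.293) and Ms4a7 at -0.32 (adjusted p = 0.105), neither called. That step can only take counts away on noTC dishes. For Ms4a7 the libraries of the comparison alone gave adjusted p = 0.0501. The call lost with LPS was that of Ms4a6c, in 4 of 8 fits, with adjusted p up to 0.103, and with library size only (adjusted p = 0.0617). Ms4a4c, at -1.84 at steady state (adjusted p = 0.0573), was called with DESeq2 (adjusted p = 0.00376), without an expression filter (0.000601), with the libraries of the comparison alone (0.0357), without M-TC replicate 1 (0.0495) and without M-noTC replicate 2 (0.0248). Ms4a6b had interactions of -0.19 (standard error 0.335) and -0.58 (standard error 0.189, adjusted p = 0.0556), the second called with DESeq2 (adjusted p = 0.0138), DESeq2 size factors (0.0429), no expression filter (0.00259) and the libraries of the comparison alone (0.0409). Leaving out GM-TC-LPS replicate 2 moved that value to -0.93 (adjusted p = 0.00671), and it was also called without M-TC-LPS replicate 1 (0.0468) and without M-noTC-LPS replicate 2 (0.0491).

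**Figure D4:**
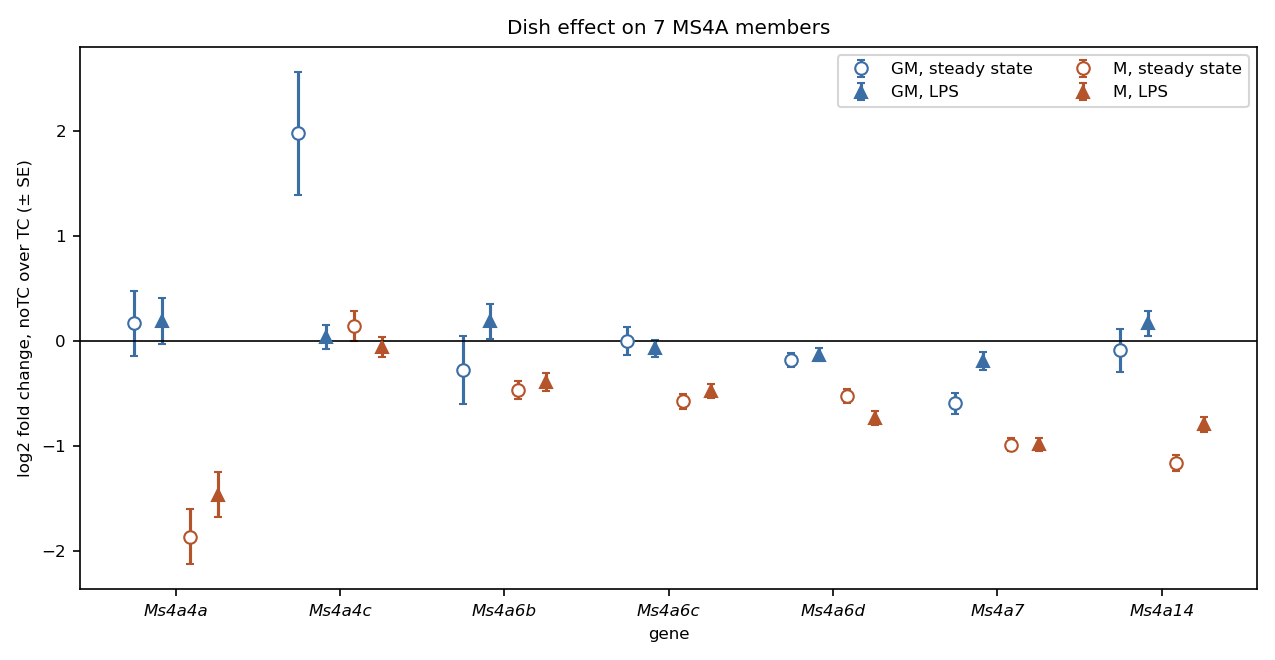
Log2 fold changes of noTC over TC dishes for 7 members (Ms4a8a, at or under the floor in M at steady state, is left out), with bars of 1 standard error from edgeR's fit, in GM (blue) and M (brown) cells at steady state (open circles) and with LPS (filled triangles). In M cells all members but Ms4a4c lie below 0 in both states, and the GM point of Ms4a4c at 1.98 carries the widest bar.

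Among the 13 other genes listed with the family, only Ms4a4b, Tmem176a and Tmem176b passed the expression filter, and 6 MS4A genes (Ms4a5, Ms4a10, Ms4a12, Ms4a13, Ms4a15 and Ms4a18) had no count in any library. Ms4a1, Ms4a2, Ms4a3 and Ms4a4d had group means of at most 0.328, 0.207, 0.281 and 0.255 CPM. Ms4a4b, a T cell member of the family, had 0.040 and 0.202 CPM in GM-TC, 0.973 and 1.04 CPM in M-TC, and 3.20 and 4.59 CPM in M-TC-LPS. Its log2 fold changes with LPS were 3.10 in GM-TC and 1.94 in M-TC. T and NK cell markers, with Ms4a4b among them, summed to at most 5.54 CPM. That was in M-noTC-LPS, where the sums were 4.98 and 5.54 CPM and Ms4a4b alone had 4.57 and 5.24 CPM. RSEM split reads between Ms4a4b and Ms4a4c: in 6 libraries both had fractional counts, and their sum was whole in all 6. Ms4a6b and Ms4a6c had fractional counts together in 3 libraries with a whole sum in each, so the levels of these pairs rest in a small part on that split.

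Tmem176a and Tmem176b followed the members that were high in M. Tmem176b had 121 and 124 CPM in M-TC and 55.4 and 61.2 CPM in M-noTC, against 8.13 and 9.26 CPM in GM-TC and 12.5 and 12.05 CPM in GM-noTC. Its log2 fold change in M-noTC against M-TC was -1.07 (edgeR adjusted p = 7.05e-10), and in GM-noTC against GM-TC it was 0.49 (adjusted p = 0.0131). Tmem176a had 45.2 and 46.3 CPM in M-TC and 22.0 and 25.1 CPM in M-noTC (log2 fold change -0.95, adjusted p = 2.42e-08).

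**Figure D5:**
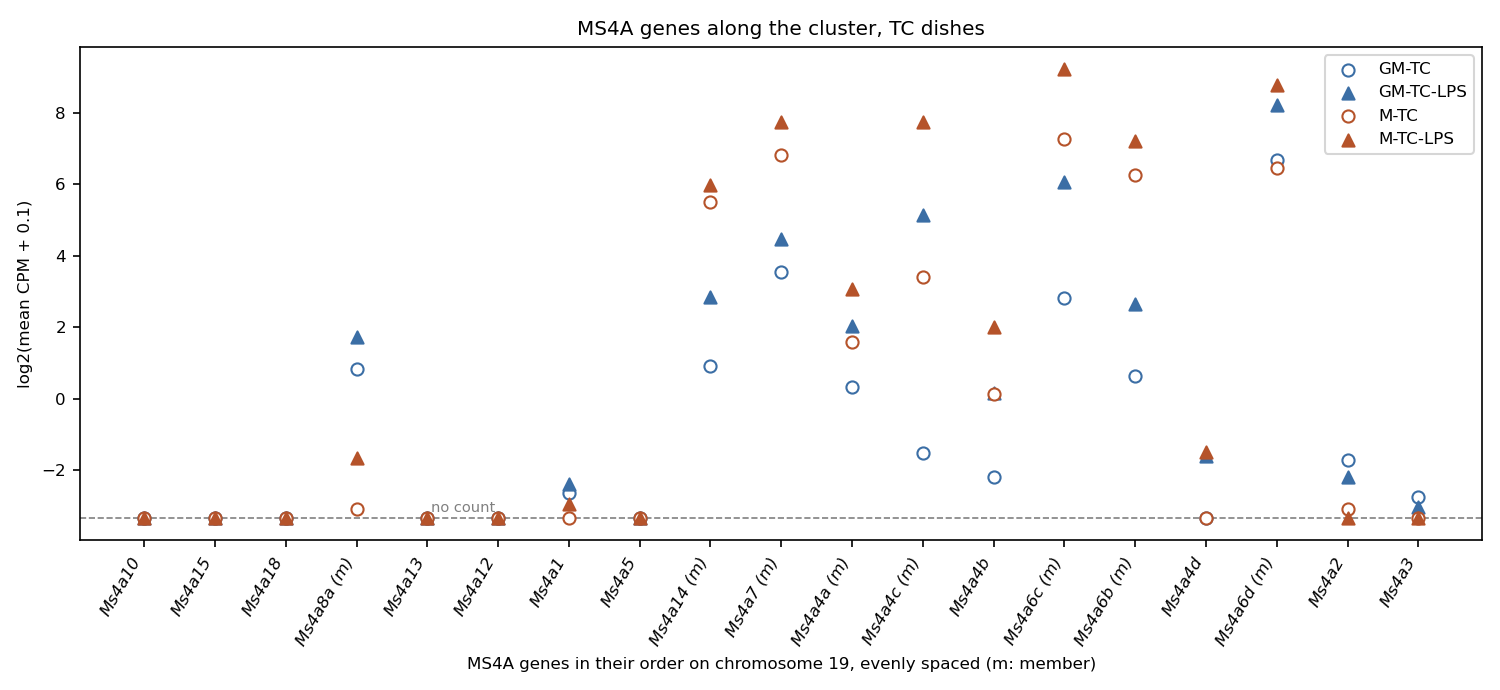
The 19 MS4A genes in their order along chromosome 19, evenly spaced, against log2(mean CPM + 0.1) in the GM-TC, GM-TC-LPS, M-TC and M-TC-LPS groups (n = 2 each), with (m) after the names of the 8 members. The dashed line is a gene with no count. The genes from Ms4a14 to Ms4a6b and Ms4a6d lie well above it in M, and their neighbours from Ms4a10 to Ms4a5 lie at or near it, apart from Ms4a8a in GM.

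Genes of receptors and possible partners of MS4A proteins were counted beside the members, against the shares of all genes given above for each comparison. Not all of these listed genes are established partners. Of 12 such genes, 3 were higher and 9 lower in M-TC than in GM-TC. Clec7a, the receptor partner of Ms4a4a, was lower by a log2 fold change of -3.26, Pilra, an inhibitory receptor, by -2.70, and the tetraspanin Cd9 by -2.23. With LPS 6 of the 12 were higher and 5 lower in GM-TC, and 6 higher and 3 lower in M-TC. Pilra (2.64 and 3.76) and the kinase Syk (1.37 and 1.73) rose in both. In M-noTC comparing with M-TC 2 were higher and 5 lower, among them the sialic acid receptor Cd33 (-0.79), and in GM-noTC 1, Pilra, was higher (0.49). M-CSF and alternatively activated macrophage genes, listed for comparison, were lower in M-noTC than in M-TC in 9 of 16 tested and higher in 2. Apoe, the lipid carrier (-1.55), C1qa, of the complement C1q complex (-0.91), and Gas6, a ligand of clearance receptors (-0.89), were lower, and the folate receptor Folr2 was higher (0.94). Of the same 16 genes, 11 were higher and 5 lower in M-TC than in GM-TC.

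Over the 16 libraries, on log2 CPM with a prior count of 2, Pearson's r between members was 0.978 for Ms4a6b with Ms4a7, 0.980 for Ms4a7 with Ms4a14, 0.986 for Ms4a6b with Ms4a14 and 0.949 for Ms4a6b with Ms4a6c. It was 0.259 for Ms4a6b with Ms4a6d, 0.885 for Ms4a4a with Ms4a6d, and -0.822 for Ms4a6b with Ms4a8a. These are descriptions over 8 groups of 2 libraries, most of whose spread is that between groups. Among genes outside the family at 1 CPM or more, those most alike were Kansl1l and Frmd4b for Ms4a6b (r = 0.996 and 0.993), Xylt2 and Atf6b for Ms4a6c (0.993 and 0.991), and Man1a and Kansl1l for Ms4a14 (0.992 and 0.991). They were Cask and Csf3r for Ms4a7 (0.990 and 0.987), Rab20 and Scarf1 for Ms4a6d (0.993 each), Sdc4 and Spred1 for Ms4a4c (0.996 and 0.995), and Napsa and Il2ra for Ms4a8a (0.994 and 0.988). Ms4a4a had the least close match, Rabep2 and Sem1 (0.932 and 0.928).

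The order of the groups differed between members. Ms4a6b and Ms4a6c stood highest in M-TC-LPS, then M-noTC-LPS, M-TC and M-noTC, with no overlap between neighbours among these 4, and all GM groups below. With library size only Ms4a6c kept this order, while for Ms4a6b M-TC (104 to 111 CPM) stood above M-noTC-LPS (89.8 to 97 CPM) and overlapped M-TC-LPS (109 to 121 CPM). For Ms4a7 and Ms4a14, M-TC at steady state stood above M-noTC-LPS, again with no overlap, also with library size only, where M-TC stood above M-TC-LPS for Ms4a14. For Ms4a4c the pairs of TC and noTC groups overlapped within each culture, apart from GM-noTC over GM-TC at steady state. For Ms4a6d the order was M-TC-LPS, GM-TC-LPS, GM-noTC-LPS and M-noTC-LPS, of which the last 2 overlapped, above the steady state of GM-TC, then GM-noTC, then M-TC, with M-noTC lowest. With library size only M-TC stood first among these 4, and M-noTC-LPS before GM-noTC-LPS. Ms4a4a was lowest in M-noTC, whose libraries overlapped those of GM-TC, and Ms4a8a was highest in GM-noTC-LPS, or in GM-noTC with library size only, groups that overlapped their next neighbour.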

How the data were processed

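The deposited table holds expected counts per gene for 16 libraries. Per the labels and methods, the authors enriched poly(A) RNA, trimmed reads with fastp 0.18.0, aligned them with HISAT2 and quantified genes with RSEM. Bowtie2 2.2.8 and StringTie 1.3.1 are also named in the submitters' processing notes. The genome build and annotation are not given in the sources used here, and Ensembl gene IDs were matched to GENCODE vM21 for exon length and position. Values were rounded to whole counts, since an RSEM count need not be whole, and reads shared by near-identical genes are split by estimation. Counts were scaled with TMM and fitted with edgeR 4.0.16 (R 4.3.3) over all 8 groups in 1 quasi-likelihood model, without a replicate block. Total counts between 17527802 and 31458363 per library limit genes near 3 counts. The standard error is the log2 fold change over the root of the F statistic. Members and lists were chosen with earlier results of these data known. The text names the 8 members, the other MS4A and TMEM176 genes, the 2 genes most alike to each member and up to 4 called genes of a list with the largest change. Alternatives were DESeq2 1.42.0 on all libraries, its size factors or library size only, no filter beyond a count above 0, the libraries of the comparison alone, a fold change over 2 with unadjusted p under 0.05, subtraction of a share of other libraries, a replicate block, and leaving out each library. Tests were checked on simulated counts.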

Additional observations from a re-analysis of the deposited data

Results flagged for a closer look

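Member differences between cultures were those in which the effect of LPS or of the dish differed past an adjusted p of 0.05 from edgeR's interaction test. Values are differences of log2 fold changes. The LPS response of M cells minus that of GM cells on TC dishes was -1.51 for Ms4a14, -2.80 for Ms4a4c, -1.16 for Ms4a6b, -1.35 for Ms4a6c and 0.781 for Ms4a6d. On noTC dishes the same difference was -1.40 for Ms4a14, -1.05 for Ms4a4c, -1.54 for Ms4a6b, -1.17 for Ms4a6c, 0.523 for Ms4a6d and -0.401 for Ms4a7. The fitted value of 5.11 for Ms4a8a on noTC depends on the prior count, since M-noTC libraries had no count of it, and gives no size.

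The dish effect (noTC over TC) of M cells minus that of GM cells at steady state was -1.07 for Ms4a14, -2.04 for Ms4a4a, -0.575 for Ms4a6c, -0.346 for Ms4a6d and -0.394 for Ms4a7. With LPS it was -0.962 for Ms4a14, -1.66 for Ms4a4a, -0.403 for Ms4a6c, -0.603 for Ms4a6d and -0.792 for Ms4a7. The LPS response of M-noTC minus that of M-TC cells was 0.364 for Ms4a14. With 2 libraries a group, no single library could be tested as standing apart.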

How the results depend on the processing

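Of 368 recomputed counts of called members, 324 stayed within 1.5 times the count reported. With library size only, 4 members were called higher and 1 lower with LPS in M-TC (8 and 0 with TMM), 1 was lower in M than GM on TC, and 2 values turned: Ms4a14 with LPS in M-TC to -0.363 and Ms4a6d in M against GM on TC to 0.0964. At a fold change over 2 with unadjusted p under 0.05, 5 members were higher with LPS in M-TC. By that rule 1 was higher and 0 lower in GM-noTC, 2 lower in M-noTC and 1 in M-noTC-LPS, 1 lower in M against GM on TC, on noTC and on noTC with LPS, and interactions of dish and LPS numbered 1 in GM and 0 in M, those of dish and growth factor 3 at steady state and 1 with LPS. DESeq2 gave 1 member higher in GM-noTC and dish by LPS interactions of 1 in GM and 0 in M, and omitting the filter gave 1 in GM. With only the libraries of the comparison, 0 were higher in GM-noTC and 1 lower in M against GM on TC. After subtraction 0 were higher in GM-noTC and 3 had a dish by growth factor interaction at steady state. Without 1 library, 0 to 0 members were higher and 1 to 2 lower in GM-noTC, 1 to 2 lower in M against GM on TC and on noTC with LPS, 0 to 1 had a dish by LPS interaction in M, and 2 to 5 a dish by growth factor interaction at steady state. A group left with 1 library is assumed to vary like the others.

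Whether same-numbered libraries share more than a number is not given in the sources used here. The correlation of their deviations lay between -0.0636 and 0.020 over 12 comparisons, and with 2 pairs it cannot show whether they share mice. With the replicate number as a block 1 member was called higher in GM-noTC, Ms4a4c, and the block gained interactions for Ms4a4c (-1.85, edgeR adjusted p = 0.0408) and Ms4a6b (-0.58, adjusted p = 0.0113) and changed the count of calls over all genes by a factor between 0.963 and 1. Of 768 single values without 1 library and 1074 under other alternatives, none beyond the 2 named turned while called. Depth limits Ms4a8a in M, Ms4a4c in GM-TC and Ms4a4a. The causes of these changes were not tested.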
